A study of Mus musculus with 9 samples.

Results

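Sox2-GFP+ cells of the embryonic mouse incisor were compared with Sox2-GFP+ cells of the adult incisor over every array transcript cluster that carries 1 gene symbol. The comparison used 6 of the 9 arrays of the series, 3 embryo and 3 adult, and 36559 of 65956 transcript clusters. A transcript cluster is the array's unit for 1 gene locus, and its value is a log2 signal. Embryo samples were living cells of the incisor epithelium from E14.5 embryos, and adult samples were living cells of the labial cervical loop from P30 mice. Age and dissected region thus differ together and cannot be told apart in any difference given below. All 6 came from dissected tissue of Sox2-GFP+ mice and were sorted for green fluorescence and for exclusion of a dead-cell dye (AAD-). Each sample combined several embryos or mice, so the spread between replicates is a spread between pools. The labels do not describe the GFP allele, and the sort selects GFP, not a second epithelial marker. The other 3 arrays of the series, purchased mouse embryonic stem cells, did not enter the comparison.

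The mouse incisor grows throughout life. Its labial cervical loop is the epithelial pocket at the growing end, in which Sox2 marks stem cells whose progeny become ameloblasts, the cells that secrete and mineralise enamel. At E14.5 the incisor is an epithelial cap that is still folding around the dental mesenchyme, and no enamel has formed.

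The labelled tissue was first checked against 20 genes of dental epithelium identity. Krt14, a keratin of basal epithelium, read 14.82, 15.18 and 15.17 on adult replicates 1 to 3 and 15.35, 15.29 and 15.58 on embryo replicates 1 to 3. Epcam, an epithelial adhesion molecule, read 10.9, 11.77 and 11.67 in adult and 12.16, 12.7 and 12.35 in embryo. Both genes were strongly detected on all 6 arrays, and for neither did the difference pass the test. Of the 20 genes, 2 were higher in embryo (Grhl2 at 1.24 and Pitx1 at 1.29 on the log2 scale) and 1 was lower (Perp, a desmosome gene, at -1.82). Grhl2, an epithelial transcription factor, lost its call in all 6 fits that leave out 1 array. Trp63, the master factor of stratified epithelium, had a difference of 0.04 (adjusted p = 0.962), which was -0.17 under quantile normalisation. Ovol1 was near background at both ages.

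The Sox2 cluster (chromosome 3, start 34650005, end 34652461 in the authors' annotation, build not given in the sources used here) read 8.75, 10.49 and 10.26 in adult and 11.68, 12.24 and 11.66 in embryo. The embryo arrays all lay above the adult arrays, and adult replicate 1 was the lowest of the 6. The difference of 2.03 ± 0.5 (SE, n = 3 per group) did not pass the test across all clusters (limma, adjusted p = 0.0665). It passed without adult replicate 1 (1.48, adjusted p = 0.0315) and with all 9 arrays in 1 fit (adjusted p = 0.015).

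Adult replicate 1 stood apart from the other arrays. Its standard deviation around the group mean was 0.267, against 0.182 to 0.204 on the other 5. Among the adult arrays it was the lowest for 18 of the 20 epithelial identity genes and the highest for 21 of 21 genes of dental and jaw mesenchyme and 13 of 15 genes of osteoblasts and odontoblasts. Correlations across clusters, which are not independent replicates, were 0.99 to 0.995 among adult arrays, 0.993 to 0.995 among embryo arrays and 0.964 to 0.978 between the ages. Of the tested clusters, 8.09% carried the same value on all 3 arrays of an age, and these made up 2.55% of the calls. The array has no detection calls, so the median of 5222 negative-control probe sets, 4.93, served as the background level. The array medians of 4.72 to 4.83 lay below it, and a further 23 probe sets marked as background had a median of 2.76, a floor that would name fewer genes. A group mean below 4.93 is called near background here, and a difference against it understates the change.

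Across all clusters, 1963 of 36559 (5.37%) were called between embryo and adult, at an adjusted p under 0.05 and a log2 difference of at least 1. Of these, 1132 (3.1% of clusters) were higher and 831 (2.27%) lower in embryo, and the median difference over all clusters was 0.01. At an unadjusted p under 0.05 (limma) there were 8864 of 36559 clusters. Adult and embryo arrays did not overlap for 10156 clusters (27.8%), among them all 1963 calls. Large differences were mostly decreases: 98 clusters were lower and 8 higher by at least 4 log2 units. The embryo mean lay near background for 247 of the decreases, and the adult mean for 54 of the increases. The count fell to 974 without embryo replicate 2 and to 1090 without embryo replicate 3, and was 1684 without adult replicate 1. In all 6 fits that leave out 1 array, 811 of the 1963 calls were kept. In a second deposited copy of the signals, 2 embryo columns carry the same sample name but different days, read from a number in the column names. No label says which step of the work that day refers to. Counting those 2 columns as 1 sample left 1385 calls, of which 836 were higher and 549 lower. A fit of the brighter clusters alone called 7.17% of them higher and 5.38% lower. In the authors' deposited table, 557 of the same clusters had an FDR p under 0.05 and a fold of at least 2, of which 544 were also called here.

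**Figure D1:**
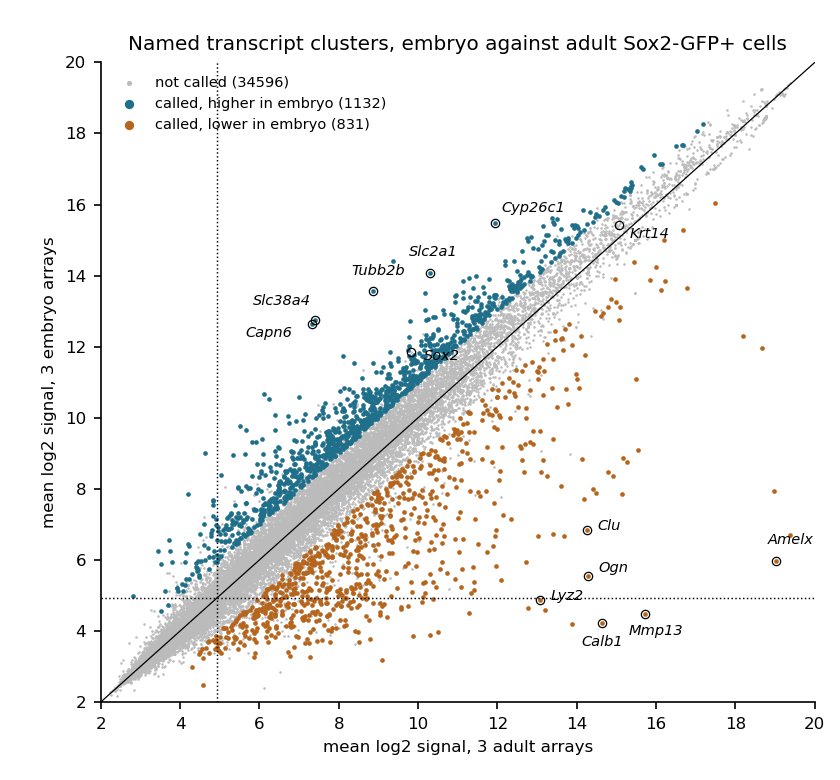
Mean log2 signal of 36559 transcript clusters on the 3 adult arrays (x axis) and the 3 embryo arrays (y axis), with called clusters coloured by direction and 13 genes circled. Dotted lines mark the background level of 4.93, and the solid line marks equal means. The decreases reach farther from the line than the increases, and several end at the background.

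The genes with the highest differences were of several kinds. Capn6, a calpain family gene that lacks protease activity, read 7.52, 6.99 and 7.47 in adult and 12.66, 12.67 and 12.56 in embryo. Tubb2b, a tubulin of young neurons and other embryonic cells, read 9.03, 8.66 and 8.85 in adult and 13.5, 13.42 and 13.76 in embryo. For both, every embryo array exceeded every adult array by more than 4 log2 units, and the differences were 5.3 ± 0.15 (adjusted p = 0.00037) and 4.71 ± 0.13 (adjusted p = 0.000363). The amino acid transporter gene Slc38a4 had a difference of 5.36 ± 0.82, but its adult signals spread from 5.62 on replicate 1 to 8.75 on replicate 2, and the call was lost in 4 of the 6 fits that leave out 1 array.

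Slc2a1, Egln3, Ak4 and Ccne1 were also among the 12 highest, leaving out predicted, Riken and pseudogene names, and are described with their groups. Tmprss11g, a membrane serine protease gene, was near background on the adult arrays (4.17, 4.09 and 4.31) and read 7.36, 8.94 and 7.27 in embryo, with a difference of 3.67 ± 0.48 (adjusted p = 0.0111). Cyp26c1, which encodes an enzyme that breaks down retinoic acid, was bright at both ages. It read 11.03, 12.36 and 12.39 in adult and 14.93, 16.03 and 15.51 in embryo (3.56 ± 0.48, adjusted p = 0.0122).

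The lowest adjusted p also went to genes of moderate difference. Galk1, galactokinase, read 8.22, 8.23 and 8.29 in adult and 10.76, 10.92 and 10.76 in embryo. Ddah1, an enzyme that degrades methylated arginine, read 7.42, 7.35 and 7.43 in adult and 9.26, 9.23 and 9.23 in embryo. Replicates of both genes lay close together at each age, and both were higher in embryo by 2.57 ± 0.06 and 1.84 ± 0.04 (adjusted p = 0.000259 for each). The other 8 of the 10 lowest adjusted p belonged to genes lower in embryo.

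**Figure D2:**
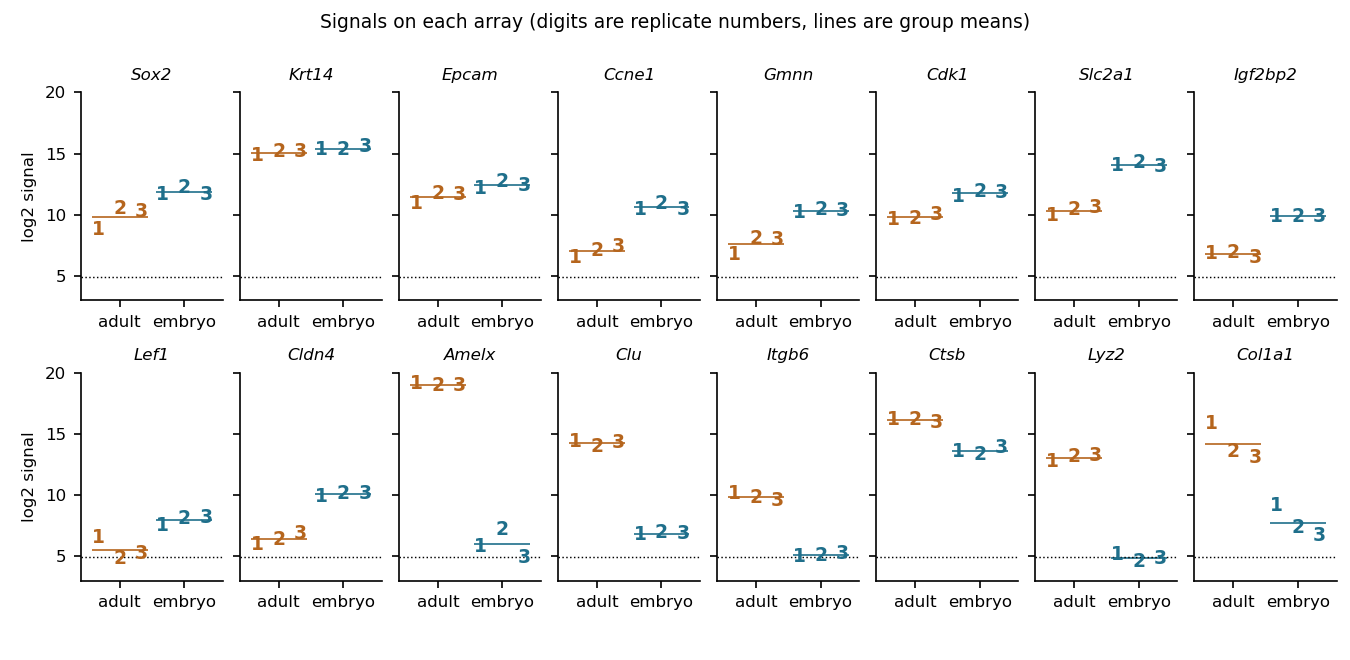
Log2 signals of 16 genes on each of the 6 arrays, with digits for the replicate number, brown for adult and blue for embryo, and lines at the group means. The dotted line is the background level of 4.93. Krt14 and Epcam are bright at both ages, Amelx and Lyz2 are bright only in adult, and adult replicate 1 is lowest for Sox2 and highest for Col1a1.

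Genes of DNA replication were higher in embryo almost as a block. Cells license each origin by loading the MCM helicase, then fire it and copy the DNA with polymerases. Of 31 measured genes of licensing and the replication fork, 26 were higher in embryo and 0 lower, with a median difference of 1.59, beside 3.1% and 0.01 over all clusters. The differences ran from 0.79 to 2.71, and adult and embryo arrays did not overlap for all 31, beside 27.8% of all clusters. Not called were Mcm6 (1.24), Pcna (1.03), Cdt1 (0.93), Gins3 (0.85) and Rfc3 (0.79).

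Gmnn, geminin, the inhibitor that prevents a second round of licensing, read 6.77, 8.07 and 7.95 in adult and 10.21, 10.4 and 10.31 in embryo. Ticrr, which is needed to fire origins, read 8.62, 8.44 and 8.7 in adult and 10.95, 11.44 and 10.95 in embryo. These genes led the list at 2.71 ± 0.37 (adjusted p = 0.0122) and 2.53 ± 0.16 (adjusted p = 0.00238), and only Gmnn had an adult array, replicate 1, well below the other adult arrays. The helicase subunits Mcm2 (2.0 ± 0.31) and Mcm3 (1.92 ± 0.14) and the polymerase subunit Pola1 (2.03 ± 0.25) were close to one another. The count of 26 was 20 without adult replicate 1 and 12 without embryo replicate 2 or embryo replicate 3. It was 16 with the day as a block.

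Mitosis genes showed the same direction. Of 34 measured, 30 were higher in embryo and 0 lower, with a median of 1.45, and differences from 0.7 to 2.31. Cdk1, the kinase that drives entry into mitosis, read 9.62, 9.71 and 10 in adult and 11.5, 11.92 and 11.79 in embryo. Cdc20, the activator of the anaphase-promoting complex, read 9.61, 9.82 and 9.8 in adult and 11.71, 12.14 and 11.86 in embryo. No adult array of either gene came within 1 log2 unit of an embryo array, and the differences were 1.96 ± 0.15 (adjusted p = 0.00327) and 2.16 ± 0.13 (adjusted p = 0.00224).

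The spindle kinesin gene Kif20a (2.31 ± 0.17) and the mitotic kinase gene Plk1 (1.99 ± 0.14) were of similar size. Adult signals of these genes were not low: for Plk1 the adult mean was 12.42 ± 0.19 and the embryo mean 14.42 ± 0.21 (SD, n = 3 each). The count of 30 was 25 without adult replicate 1, 19 without embryo replicate 2 and 15 without embryo replicate 3. Not called were Smc4 (0.98), Birc5 (0.86), Ccna2 (0.86) and Nuf2 (0.7).

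Genes that set entry into S phase were less uniform. Of 24 cyclins, CDKs, inhibitors and E2F genes, 10 were higher and 1 lower in embryo, with a median of 0.9. Ccne1, cyclin E1, which starts S phase with its partner kinase, read 6.46, 7.09 and 7.41 in adult and 10.44, 10.92 and 10.42 in embryo, a difference of 3.61 ± 0.28 (adjusted p = 0.00336). It had the largest difference of the list, and the next was Skp2 (2.09 ± 0.21), a ubiquitin ligase subunit that removes a CDK inhibitor. E2f7 and E2f8, repressors that act late in S phase, were higher by 1.84 ± 0.25 and 1.8 ± 0.28. The retinoblastoma gene Rb1 was the 1 lower gene (-1.1 ± 0.15, adjusted p = 0.0133), and Cdkn1a, the p21 inhibitor, had a difference of -2.06 that did not pass (adjusted p = 0.0797). Of 17 genes of nucleotide supply, 10 were higher and 0 lower (median 1.11). Among them were Rrm2 (2.24 ± 0.23), a subunit of the enzyme that makes deoxynucleotides, and Cad (1.61 ± 0.17) of pyrimidine synthesis. The 3 embryo signals of Cad were equal at 10.43.

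Promoters of these genes are shown because the replication and mitosis lists each moved together and their promoters differ in some short motifs. CCAAT is frequent in both lists. Hells, of the chromatin list, is shown beside them for its motif and is not in their counts. Late cell cycle genes are known for a cell cycle homology element with the core TTTGAA, often next to a CCAAT box, and S phase genes for E2F sites, searched here as TTTGGCG and TTTCGCG. The windows below are the 100 bases before the RefSeq start of each gene (GRCm38.p6, strand of the gene), chosen because they hold a motif, with the motif on either strand in capitals. In Cdk1 (chr10:69352913-69353012, minus strand) and Cdc20 (chr4:118437344-118437443, minus strand) capitals mark TTTGAA and CCAAT. In Chaf1a (chr17:56040316-56040415, plus strand), a histone chaperone subunit gene, Orc1 (chr4:108579354-108579453, plus strand), an origin recognition subunit gene, and Hells (chr19:38930890-38930989, plus strand), a chromatin remodeller gene, they mark TTTGGCG or TTTCGCG. The Chaf1a and Orc1 windows also hold CCAAT, left in lower case.
Cdk1: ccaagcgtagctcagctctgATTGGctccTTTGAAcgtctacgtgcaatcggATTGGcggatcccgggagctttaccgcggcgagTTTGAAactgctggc
Cdc20: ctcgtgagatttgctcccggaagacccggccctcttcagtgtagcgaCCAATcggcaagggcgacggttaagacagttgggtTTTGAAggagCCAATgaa
Chaf1a: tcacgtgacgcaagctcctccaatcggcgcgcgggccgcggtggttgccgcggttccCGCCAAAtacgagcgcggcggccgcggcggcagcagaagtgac
Orc1: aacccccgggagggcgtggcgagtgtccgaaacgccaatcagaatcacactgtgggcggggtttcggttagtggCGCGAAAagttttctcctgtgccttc
Hells: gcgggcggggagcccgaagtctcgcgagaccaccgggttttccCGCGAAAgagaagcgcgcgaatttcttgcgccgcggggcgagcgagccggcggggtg

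In windows from 250 bases before to 50 after the start, TTTGAA was present in 23 of 30 mitosis promoters (76.7%), in 4 of 26 replication promoters (15.4%) and in 18.1% of 27025 promoters of the table. CCAAT was present in 76.7% of mitosis and 61.5% of replication promoters, against 37.9% of all. TTTGGCG was present in 34.6% of replication promoters, 0 of 30 mitosis promoters and 1.59% of all, and TTTCGCG in 23.1%, 6.67% and 0.844%. Here and below, each set holds all list members that have a promoter in the table, whether called, not called or not measured. The 30 mitosis and 26 replication promoters are therefore not those of the called genes. These are counts of letters on either strand, with overlapping matches kept, and say nothing of binding. Chaf1a, Orc1 and Hells were higher in embryo by 1.5 ± 0.13, 1.51 ± 0.11 and 1.48 ± 0.07. The 3 embryo signals of Hells were equal at 10.15.

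Genes of sugar breakdown had calls at the step of uptake and along the pathway. Of 21 genes of glycolysis and lactate handling, 11 were higher and 1 lower in embryo, with a median of 1.06. Slc2a1, the glucose transporter GLUT1, read 9.89, 10.42 and 10.57 in adult and 14.04, 14.3 and 13.91 in embryo, a difference of 3.79 ± 0.21 (adjusted p = 0.00186) and a linear fold of 13.8. No other gene of the list differed as much: Tpi1 and Pkm of the later steps were higher by 2.25 ± 0.14 and 2.1 ± 0.21. Pgk1 has a cluster on chromosome X, where the RefSeq table places the gene (2.4 ± 0.1), and a brighter one on chromosome 12 with the same symbol, which stands for it in the list (2.41 ± 0.2). Pfkl, a form of the rate-setting phosphofructokinase, was higher by 1.87 ± 0.15, while Pfkm and Pfkp lay at -0.06 and -0.16.

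Lactate dehydrogenase subunits went opposite ways. Ldha, whose enzyme favours lactate formation, read 9.75, 9.63 and 9.61 in adult and 11.08, 11.32 and 10.95 in embryo (1.45 ± 0.11, adjusted p = 0.00313). Ldhb read 10.96, 11.41 and 11.32 in adult and 9.96, 9.38 and 10.24 in embryo (-1.37 ± 0.25, adjusted p = 0.0287), a call lost in all 6 fits that leave out 1 array. Egln3 and Ak4, both known targets of the hypoxia-inducible factors, were also among those 12 highest differences. Egln3, an oxygen-sensing prolyl hydroxylase, read 6.04, 5.55 and 5.42 in adult and 9.82, 10.09 and 9.06 in embryo (3.99 ± 0.32, adjusted p = 0.00343). Ak4, a mitochondrial adenylate kinase, was higher by 3.62 ± 0.23 (adjusted p = 0.00238).

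The hypoxia response element has the core ACGTG. It was present in 11 of 22 glycolysis promoters (50%) and in 19.7% of all promoters, and also in 10 of 23 lysosome promoters (43.5%), a list that was lower in embryo. The windows of Slc2a1 (chr4:119108645-119108744, plus strand) and Ldha (chr7:46845704-46845803, plus strand) are shown with ACGTG in capitals, on either strand.
Slc2a1: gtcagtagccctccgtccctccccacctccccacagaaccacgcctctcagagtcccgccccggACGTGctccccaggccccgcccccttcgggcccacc
Ldha: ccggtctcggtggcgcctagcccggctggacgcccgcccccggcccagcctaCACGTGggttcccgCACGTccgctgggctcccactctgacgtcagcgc

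Most measured genes of cholesterol synthesis and uptake were higher in embryo. Of 21 genes of synthesis and uptake, 13 were higher and 0 lower, with a median of 1.12. Fdps, which makes farnesyl diphosphate, read 11.64, 11.5 and 11.79 in adult and 13.7, 13.96 and 13.41 in embryo (2.05 ± 0.16, adjusted p = 0.00334). Mvd, an enzyme of the mevalonate branch, read 6.76, 7.1 and 6.8 in adult and 8.54, 8.31 and 8.26 in embryo (1.48 ± 0.13, adjusted p = 0.00398). The embryo arrays of both genes lay above all adult arrays, as they did for Hmgcs1 (1.42 ± 0.21), an early enzyme of the pathway. The count of 13 was 8 without adult replicate 2 or embryo replicate 2, 7 without embryo replicate 3, and 8 with the replicate number as a block.

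CCAAT, the box bound by NF-Y, which acts beside SREBP at sterol promoters, was present in 15 of 16 promoters of the cholesterol list (93.8%), against 37.9% of all. It was also present in 66.7% of enamel matrix, 44.4% of basement membrane and 34.8% of lysosome promoters, lists that were lower in embryo. Hmgcs1 (chr13:119690251-119690350, plus strand) and Mvd (chr8:122443423-122443522, minus strand) are shown with CCAAT in capitals, on either strand.
Hmgcs1: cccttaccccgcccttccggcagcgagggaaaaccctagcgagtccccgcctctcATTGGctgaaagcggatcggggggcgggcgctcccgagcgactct
Mvd: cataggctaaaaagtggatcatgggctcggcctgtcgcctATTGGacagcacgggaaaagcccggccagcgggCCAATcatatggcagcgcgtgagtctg

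Few genes of fatty acid oxidation and of the respiratory chain were called. Of 20 genes of fatty acid oxidation and storage, 1 was higher and 2 lower (median -0.37). Cpt1a, which controls entry of fatty acids into mitochondria, read 10.72, 11.12 and 10.99 in adult and 6.98, 6.69 and 6.06 in embryo, a difference of -4.37 ± 0.26 (adjusted p = 0.00222). The fatty acid transporter gene Cd36 was lower (-2.34 ± 0.43) and the fatty acid-binding protein gene Fabp5 higher (1.71 ± 0.09). Of 24 respiratory chain subunits, 1 was called, Ndufa1 (-1.07 ± 0.06), a share near the 5.37% of all clusters called. The median of 0.19 for these subunits became -0.07 under quantile normalisation. Of 20 genes of serine, one-carbon and amino acid supply, 7 were higher and 0 lower (median 1.03), with Shmt2, the mitochondrial serine hydroxymethyltransferase, at 2.56 ± 0.22 (adjusted p = 0.00423). Of 21 glutathione and redox genes, 1 was called, the secreted peroxidase gene Gpx3 (-3.31 ± 0.28), also a share near 5.37%.

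Of 26 ribosome biogenesis genes 15 were higher in embryo and 0 lower (median 1.08). Of 19 aminoacyl-tRNA synthetases 6 were higher and 0 lower (median 0.85), of which 1 was kept in all fits that leave out 1 array, and the day block left 3. Utp4, a subunit of the complex that processes small-subunit RNA, read 10.88, 11.63 and 11.28 in adult and 13.15, 13.12 and 13.12 in embryo (1.87 ± 0.19, adjusted p = 0.00632). Mybbp1a, a nucleolar protein gene, was higher by 1.65 ± 0.15. Myc, a driver of ribosome synthesis, read 8.99, 9.17 and 9.07 in adult and 10.05, 10.24 and 9.88 in embryo. Its difference of 0.98 had an adjusted p of 0.00735 but fell just under the fold threshold. Of 9 genes of the Myc family limma called 0 (5 at an unadjusted p under 0.05, beside 8864 of 36559 clusters). The ribosome count of 15 was 8 without embryo replicate 1 or embryo replicate 3 and 6 without embryo replicate 2.

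Among 22 genes of DNA methylation and chromatin assembly, 8 were higher and 0 lower (median 0.85). Uhrf1, which brings the maintenance methyltransferase to newly copied DNA, read 10.11, 10.19 and 10.41 in adult and 12.48, 13.18 and 12.69 in embryo (2.55 ± 0.2, adjusted p = 0.00334). Ezh2, the Polycomb methyltransferase, was higher by 1.31 ± 0.16, and the heterochromatin gene Cbx5 by 1.55 ± 0.08. Of 13 oncofetal genes, 3 were higher. Igf2bp2, a fetal RNA-binding protein gene, read 6.83, 6.94 and 6.47 in adult and 9.86, 9.85 and 9.85 in embryo (3.11 ± 0.13, adjusted p = 0.000959), and Igf2bp3 was higher by 2.96 ± 0.22. The third was Mest (1.17 ± 0.08), an imprinted gene, whose 3 adult signals were equal at 9.2.

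**Figure D3:**
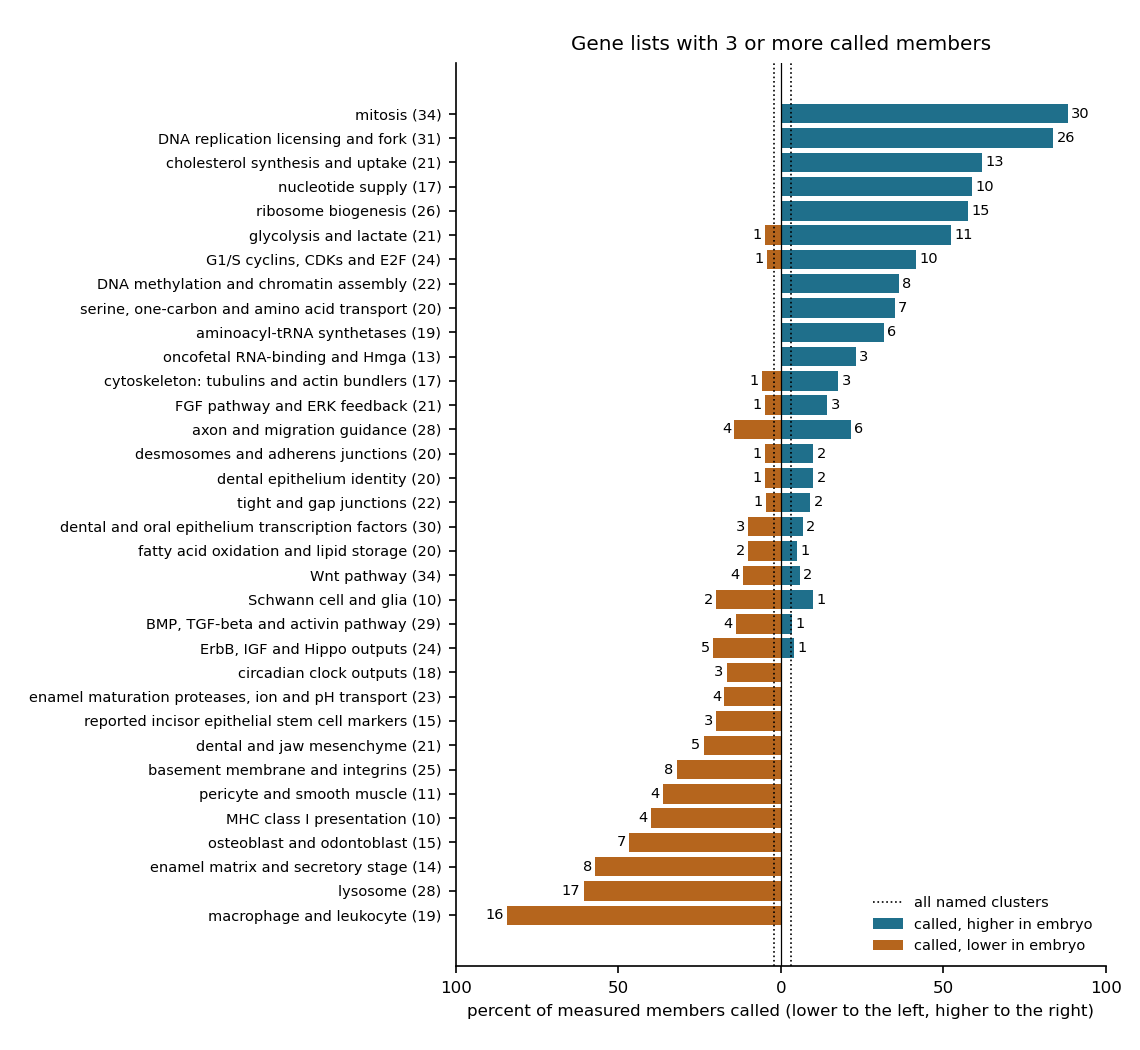
Percent of the measured members of each gene list called lower (left, brown) or higher (right, blue) in embryo, for lists with 3 or more calls. Bar labels are counts, brackets hold the number measured, and dotted lines are the shares over all named clusters (2.27% lower, 3.1% higher). Mitosis and DNA replication are at the top, macrophage and lysosome at the bottom, and signalling lists lie between with few calls.

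Tooth transcription factors had calls on both sides, with 2 of 30 higher, 3 lower and a median of 0.03. Their differences ran from -4.36 to 2.4. Adult and embryo arrays did not overlap for 18 of the 30, beside 27.8% of all clusters. In all fits that leave out 1 array, 0 of the calls were kept. Lef1, the Wnt effector needed for early tooth development, read 6.56, 4.81 and 5.23 in adult and 7.52, 8.12 and 8.17 in embryo, a difference of 2.4 ± 0.49 (adjusted p = 0.039) that was lost in 5 of the 6 fits that leave out 1 array. The homeobox genes Dlx3 (-2.93 ± 0.58) and Dlx6 (-2.1 ± 0.34) were among the lower factors, Dlx6 with a call lost in 5 of the 6 fits that leave out 1 array, and both were brightest on adult replicate 1 among the adult arrays. Of 15 reported incisor stem cell markers, 3 were lower and 0 higher: Acta2 (-5.1 ± 0.42), also the actin of smooth muscle, Igfbp5 (-1.75 ± 0.38), whose call was lost in all 6 fits that leave out 1 array, and Ptch1 (-1.67 ± 0.2).

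Receptors, ligands and feedback genes of signalling pathways were called singly. In the FGF list, 3 of 21 were higher: the ligand Fgf15 (2.83 ± 0.42), near background in adult, and the ERK feedback genes Dusp6 (2.26 ± 0.27) and Spry2 (1.7 ± 0.17). Dusp6 read 12.98, 13.62 and 13.5 in adult and 15.51, 16.09 and 15.28 in embryo, with no overlap. The receptor Fgfr3 was lower by 1.01 log2 units in embryo, at the fold threshold, and lost its call in 5 of the 6 fits that leave out 1 array.

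In the Wnt list, 2 of 34 were higher (Lef1 and the ligand Wnt10b at 1.25 ± 0.15) and 4 lower, the secreted antagonists Wif1 (-2.92 ± 0.53) and Dkk3 (-1.28 ± 0.25), the ligand Wnt7a (-1.55 ± 0.14) and the effector Tcf7 (-1.29 ± 0.2). Of these Wnt calls, 2 were kept in all fits that leave out 1 array. The count of 4 lower was 1 with day as a block, 1 with the replicate block and 6 without adult replicate 1. In the BMP and TGF-beta list, 1 of 29 was higher (the latency protein Ltbp1, 1.63 ± 0.25), beside 3.1% of all clusters, and 4 lower. Ltbp1 lost its call in 4 of the 6 fits that leave out 1 array, and was not called with day as a block. Tgfbr2, the type II TGF-beta receptor, read 11.01, 10.57 and 10.21 in adult and 6.16, 5.76 and 5.91 in embryo (-4.65 ± 0.23, adjusted p = 0.00143). Its ligand Tgfb3 was lower by a similar size (-4.9 ± 0.61), and the induced matrix protein gene Tgfbi by -3.45 ± 0.31 and the ligand Bmp4 by -2.48 ± 0.3 were the others.

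In the ErbB, IGF and Hippo list, 1 of 24 was higher and 5 lower. Erbb3, a neuregulin receptor, read 7.22, 7.48 and 7.81 in adult and 9.16, 9.5 and 9.81 in embryo (1.99 ± 0.22, adjusted p = 0.00775). The growth factor Igf1 (-3.55 ± 0.59), the binding proteins Igfbp3 (-3.64 ± 0.4), Igfbp4 (-1.98 ± 0.24) and Igfbp5, and the YAP partner Wwtr1 (-2.02 ± 0.15) were lower. On adult replicate 1, the brightest array for the mesenchyme markers, Igf1, Igfbp3 and Igfbp4 were also at their highest (9.79, 13.4 and 12.59). Igfbp5 had its lowest adult value there, 15.55 against 16.51 and 15.95 on adult replicates 2 and 3. The part of mesenchyme RNA was not tested. Other pathways had 1 call each: Hey1 (-2.34 ± 0.37) of 18 Notch genes, Ptch1 of 14 Hedgehog genes and Edar (1.5 ± 0.25), the ectodysplasin receptor, of 13 ectodysplasin and NF-kappaB genes. Hey1 lost its call in 5 and Edar in 4 of the 6 fits that leave out 1 array, and Hey1 was also not called with day as a block (adjusted p = 0.0532). Shares of 1 in 13 to 1 in 18 lie near the 5.37% of all clusters called.

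Cell contacts exchanged single members rather than moving as lists. Of 22 tight and gap junction genes, Cldn4 and Cldn6 were higher and Cldn1 lower. Cldn4 read 5.97, 6.34 and 6.86 in adult and 9.91, 10.18 and 10.18 in embryo (3.7 ± 0.24, adjusted p = 0.00248), and Cldn6, a claudin of embryonic epithelia, was higher by 2.55 ± 0.24. Cldn1 read 12.29, 11.79 and 11.67 in adult and 9.43, 9.78 and 9.98 in embryo (-2.19 ± 0.22, adjusted p = 0.00593). Of 20 desmosome and adherens junction genes, the plaque gene Pkp2 (1.84 ± 0.17) and the cadherin Dsc3 (1.7 ± 0.33) were higher and Perp lower. The Dsc3 call was lost in 5 of the 6 fits that leave out 1 array, and the Pkp2 call in 0. Of 16 epithelial keratins limma called 0 (6 at an unadjusted p under 0.05, beside 8864 of 36559 clusters). The largest differences among these were Krt15 at -3.28 (adjusted p = 0.0818) and Krt18 at 2.23 (adjusted p = 0.0766).

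Guidance genes had calls on both sides, 6 of 28 higher and 4 lower (median 0.08). The secreted semaphorins Sema3c (2.69 ± 0.45), Sema3a (2.57 ± 0.25) and Sema3f (2.51 ± 0.26) were the highest. Sema3a, which repels growing nerves, read 8.9, 9.4 and 9.57 in adult and 11.47, 12.01 and 12.1 in embryo. The membrane semaphorin Sema5a (-2.55 ± 0.15) and the netrin Ntn4 (-2.35 ± 0.41, lost in 5 of those 6 fits) were the lowest of the called genes. Of 17 tubulin and actin-bundling genes, 3 were higher, Tubb2b, Dcx (1.5 ± 0.19) and Tubb4b (1.41 ± 0.23), and Tubb6 was lower (-1.39 ± 0.27, lost in 5 of those 6 fits).

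Enamel genes had the lowest differences of the comparison. Of 14 measured genes of enamel matrix and the secretory stage, 8 were lower in embryo and 0 higher, with a median of -4.43. Amelx, amelogenin (chromosome X, start 169176114, end 169187209), read 19.12, 18.98 and 18.96 in adult and 5.79, 7.23 and 4.92 in embryo. Ambn, ameloblastin, read 19.47, 19.38 and 19.27 in adult and 6.72, 7.67 and 5.74 in embryo. Embryo replicate 2 held the highest embryo value for both genes and embryo replicate 3 the lowest. The adult arrays lay close together for both, and the differences were -13.04 ± 0.59 (adjusted p = 0.00105) and -12.66 ± 0.49 (adjusted p = 0.000799). The deposited values carry no saturation flag, and a saturated probe would make these differences lower bounds.

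The protease Mmp20, which processes the matrix, read 14.95, 13.16 and 13.49 in adult and 4.26, 4.22 and 4.08 in embryo. The acid phosphatase gene Acp4 (-5.99 ± 0.83) and Dspp, a dentin protein gene (-6.44 ± 0.62), were also near background in embryo, so their differences understate the change. For Mmp20, Acp4 and Dspp, adult replicate 1 held the highest value. It did so for 12 of the 14 genes, and for Amtn, a maturation-stage protein gene, it read 14.01 against 4.39 and 5.64 on adult replicates 2 and 3. The list mean was 12.52 on adult replicate 1, 10.27 and 10.5 on adult replicates 2 and 3, and 5.57 to 5.97 on the embryo arrays. Without adult replicate 1 the count was 9 and the median -3.0, and without embryo replicate 2 the count was 5.

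Clu, clusterin, read 14.42, 14 and 14.35 in adult and 6.75, 6.94 and 6.83 in embryo (-7.42 ± 0.13, adjusted p = 0.000148), with narrow spread at both ages. Itgb6, an integrin subunit whose loss disturbs mouse enamel, read 10.18, 9.81 and 9.57 in adult and 4.97, 5.1 and 5.21 in embryo (-4.76 ± 0.17, adjusted p = 0.000666). The calcium-binding protein gene Calb1 (-10.43 ± 0.27) was near background in embryo. It was 1 of 4 lower genes among 23 of enamel maturation and ion transport, with Slc34a2 (-4.97 ± 1.05), Alpl (-2.83 ± 0.45) and Stim1 (-1.48 ± 0.26). Slc34a2 and Stim1 lost their calls in 5 of the 6 fits that leave out 1 array, and Alpl in 4. With day as a block, 1 gene of the list was lower. That list had a median of -0.19, 8 of the 23 differences were above 0, and 12 of its genes were near background in embryo and 10 in adult. Of 9 iron genes, the carrier Trf was lower (-4.78 ± 0.45) and the receptor Tfrc higher (1.43 ± 0.19).

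Basement membrane and integrin genes had 8 of 25 lower and 0 higher, with a median of -0.93. Besides Itgb6, the laminin chain genes Lama1 (-2.15 ± 0.24) and Lama3 (-1.77 ± 0.2) and the extracellular matrix gene Fras1 (-1.7 ± 0.23) were among the lower genes. Lama3 read 8.76, 8.21 and 8 in adult and 6.54, 6.54 and 6.58 in embryo, with no overlap. The integrin subunit Itga6 did not pass (0.67, adjusted p = 0.173). The count of 8 was unchanged without adult replicate 1, and was 5 without adult replicate 2 and 4 without embryo replicate 2.

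Lysosomal genes were lower in embryo over much of the list, 17 of 28, with 0 higher and a median of -1.39. Ctsb, the protease cathepsin B, read 16.21, 16.21 and 15.98 in adult and 13.58, 13.34 and 13.88 in embryo (-2.53 ± 0.16, adjusted p = 0.00229). Ctss (-4.59 ± 0.28), Ctsh (-3.99 ± 0.29) and Ctsc (-3.77 ± 0.28) had larger differences. The membrane protein gene Lamp1, found in lysosomes of all cells, was lower by a difference of -1.8 ± 0.18 (adjusted p = 0.00621). The asparaginyl protease gene Lgmn read 12.86, 12.84 and 12.75 in adult and 9.28, 9.42 and 9.28 in embryo (-3.49 ± 0.06, adjusted p = 0.000148).

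Macrophage genes moved in the same direction as the lysosomal genes. Of 19 macrophage and leukocyte markers, 16 were lower in embryo and 0 higher, with a median of -2.89. Adult and embryo arrays did not overlap for all 19, beside 27.8% of all clusters. The mean over the 19 was 8.66 to 8.84 on the adult arrays and 4.8 to 5.42 on the embryo arrays, where 14 of them were near background. Mrc1, the mannose receptor of tissue macrophages, read 12.69, 13 and 12.61 in adult and 4.93, 4.35 and 4.64 in embryo (-8.13 ± 0.18, adjusted p = 0.000259). Cx3cr1, a chemokine receptor of resident macrophages, read 11.98, 11.95 and 11.98 in adult and 6.29, 5.42 and 5.82 in embryo. Csf1r (-5.36 ± 0.44) and Lyz2 (-8.22 ± 0.2) were also far lower. The 3 adult arrays were alike in these genes, and 16 were lower without adult replicate 1 too.

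In bulk RNA of a sort, fewer cells of a type and less RNA per cell cannot be told apart. Part of the lysosome list belongs to macrophage biology, and the part of macrophage RNA in its decrease was not tested. The toll-like receptor gene Tlr13 (-4.02 ± 0.07), the chemokine Ccl8 (-5.9 ± 0.1), C1qb (-6.53 ± 0.16) and the prostaglandin synthase gene Hpgds (-3.03 ± 0.07), all known from macrophages, had some of the lowest adjusted p of the whole comparison (0.000148 to 0.000259). Of 10 osteoclast genes, also of the myeloid lineage, limma called 0 (4 at an unadjusted p under 0.05, beside 8864 of 36559 clusters). The lymphocyte list gave 1 of 14, Cd4 (-1.63 ± 0.1), a share near the 5.37% of all clusters called.

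Genes of antigen presentation were lower in embryo in part. Of 10 MHC class I genes, 4 were lower and 0 higher (median -0.73). B2m, the light chain of class I molecules, read 13.8, 13.31 and 13.11 in adult and 9.59, 9.49 and 9.16 in embryo (-3.99 ± 0.21, adjusted p = 0.00177). The peptide-trimming enzyme gene Erap1 (-1.57 ± 0.16), the loading chaperone gene Tapbp (-1.54 ± 0.21) and the heavy chain H2-K1 (-1.3 ± 0.11) were lower as well. Macrophages express these genes too, and the macrophage list moved with them as given above; its part was not tested. Of 11 class II genes 1 was called, H2-DMb1 (-2.36 ± 0.16), beside 5.37% of all clusters. In embryo 7 of the 11 were near background, and 7 in adult. Of 21 interferon-stimulated genes 1 was called, Bst2 (-1.58 ± 0.22), a share near the 5.37% of all clusters called.

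Of 21 mesenchyme markers, 5 were lower in embryo and 0 higher, with a median of -1.8 that was -0.88 without adult replicate 1. Col1a1, the main collagen chain of bone and dentin, read 15.89, 13.56 and 13.07 in adult and 9.12, 7.32 and 6.73 in embryo (-6.45 ± 0.98, adjusted p = 0.0167). Replicate 1 was the highest array at both ages, and yet the groups did not overlap. Lum (-5.2 ± 1.09), Col1a2 (-3.37 ± 0.59), Loxl1 (-2.45 ± 0.5) and Sparc (-1.97 ± 0.24) were the other 4. Lum, a proteoglycan of fibrous tissue, lost its call in all 6 fits that leave out 1 array, and Loxl1 in 5. The list mean was 10.04 on adult replicate 1, 8.62 and 8.3 on adult replicates 2 and 3, and 6.69 to 7.52 in embryo. The count was 5 without adult replicate 1, 3 without embryo replicate 1, and 1 without adult replicate 2 or embryo replicate 3. It was 0 without embryo replicate 2, and 1 with the day as a block.

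Osteoblast and odontoblast genes were lower for 7 of 15 (median -2.0), with Spp1, osteopontin, at -4.79 ± 0.43 and the bone sialoprotein gene Ibsp at -3.78 ± 0.68, a call lost in 5 of the 6 fits that leave out 1 array. Pericyte and smooth muscle genes were lower for 4 of 11 (median -1.53), Acta2, Tagln (-2.92 ± 0.29), Rgs5 (-1.91 ± 0.12) and Abcc9 (-1.53 ± 0.24). Both lists were highest on adult replicate 1 (means 8.86 and 7.37, against 7.29 to 7.35 and 6.75 to 6.88 on the other adult arrays). Mmp13 (-11.25 ± 0.31), a collagenase, Ogn (-8.73 ± 0.94), a proteoglycan, and Cd248 (-7.01 ± 1.33), a stromal surface marker, were among the 12 lowest differences with the same names left out. Mmp13 read 15.7, 16.2 and 15.29 in adult and 4.9, 4.45 and 4.09 in embryo. Cd248 read 16.15 on adult replicate 1 and 12.44 on both other adult arrays, and lost its call in 5 of the 6 fits that leave out 1 array.

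Other cell types gave few calls. The myelin gene Pmp22 (-5.5 ± 0.57) and S100b (-1.52 ± 0.33) were lower and Erbb3 higher among 10 Schwann cell and glia genes, and none of these 3 is particular to glia. Cdh5 (-1.4 ± 0.19) was the 1 endothelial gene of 13, Ahsp (-1.93 ± 0.34) the 1 of 14 neutrophil, mast and erythroid genes, and Mitf (-1.35 ± 0.17) the 1 of 7 melanocyte genes. Most genes of these lists were near background in embryo: 12 of 13 endothelial, 13 of 14 neutrophil, mast and erythroid, and 6 of 7 melanocyte genes. In adult these numbers were 10, 10 and 4. S100b, Ahsp and Grhl3 lost their calls in 5 of the 6 fits that leave out 1 array. Limma called 0 of 11 neuron and 0 of 12 skeletal muscle genes. At an unadjusted p under 0.05 there were 4 and 1 of them, beside 8864 of 36559 clusters. Grhl3 (1.4 ± 0.26) was the 1 call of 16 cornified and oral mucosa keratinocyte genes, of which 12 were near background at each age. Shares of 1 in 13, 1 in 14 and 1 in 16 lie near the 5.37% of all clusters called.

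**Figure D4:**
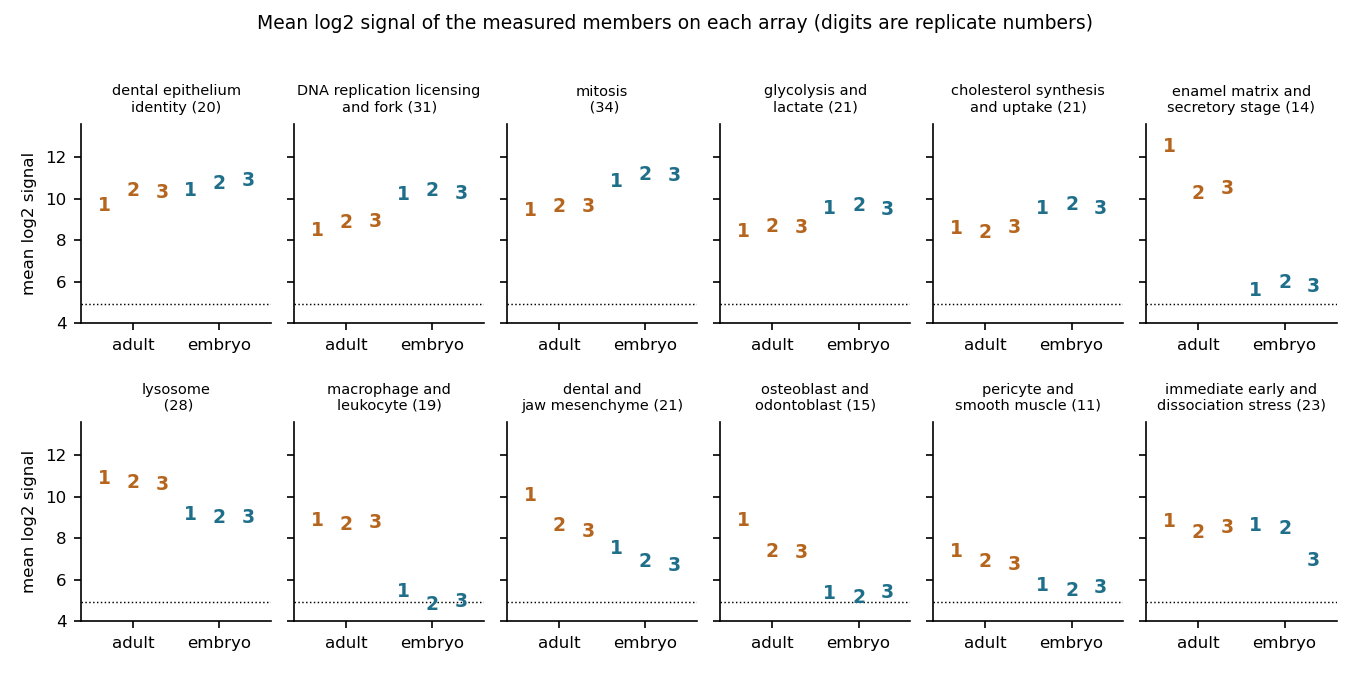
Mean log2 signal of the measured members of 12 gene lists on each array, with digits for the replicate number, brown for adult, blue for embryo, the number of genes in brackets and the background level dotted. Adult replicate 1 is lowest for epithelial identity (9.65) and highest for enamel (12.52), mesenchyme (10.04) and bone (8.86), and embryo replicate 3 is lowest for immediate early genes (6.94).

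Embryo replicate 3 stood apart in genes that respond within minutes to stimulation or tissue dissociation. The mean of 23 such genes was 6.94 on that array, against 8.47 and 8.59 on the other embryo arrays and 8.29 to 8.79 in adult. Fosb, a subunit of the AP-1 factor, read 13.17, 12.27 and 13.01 in adult and 13.48, 11.91 and 6.46 in embryo. Fos (7.01) and Jun (10.28) were likewise lowest on embryo replicate 3, and adult and embryo arrays overlapped for all 3 genes. Of the list, 2 were lower in embryo and 0 higher, Klf6 (-1.78 ± 0.38) and Klf2 (-1.01 ± 0.13), and Klf6 lost its call in 5 of the 6 fits that leave out 1 array.

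Of the largest spreads among the adult arrays, several were genes high on adult replicate 1 alone. Hhip, a Hedgehog antagonist, read 13.86, 9.78 and 8.73 in adult and 5.12, 5.28 and 5.1 in embryo. Its groups did not overlap, yet the spread left the difference of -5.62 ± 1.36 short of the threshold (adjusted p = 0.0619), which it passed without adult replicate 1 (adjusted p = 0.00973). Dmp1, a gene of odontoblasts and osteocytes, read 12.65, 5.92 and 6.63 in adult, and 3.49 to 3.77 in embryo (adjusted p = 0.2). The neurotensin gene Nts read 12.65 on adult replicate 1 and 7.3 and 7.55 on the others. Sparcl1, an extracellular matrix protein gene, behaved otherwise, with 13.86, 16.59 and 16.17 in adult and 7.33, 8.4 and 11.51 in embryo, so that it was lowest on adult replicate 1 and highest in embryo on replicate 3. Its call was lost in 5 of the 6 fits that leave out 1 array.

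Of 29 genes of the secretory pathway and unfolded protein response limma called 0, with a median of -0.09. At an unadjusted p under 0.05 there were 9 of them, beside 8864 of 36559 clusters. Of 17 p53 target and senescence genes 1 was called, Ccng1 (-1.31 ± 0.22), a share near the 5.37% of all clusters called. Of 18 clock genes, 3 were lower and 0 higher (median -0.46). Adult and embryo arrays did not overlap for 13 of the 18, beside 27.8% of all clusters. The lower genes were Rora (-1.56 ± 0.26, lost in 5 of the 6 fits that leave out 1 array), Bhlhe41 (-1.47 ± 0.11) and Nr1d1 (-1.22 ± 0.2). Bhlhe41 read 5.82, 6.18 and 6.18 in adult and 4.64, 4.53 and 4.6 in embryo, where it was near background. Of 20 stellate reticulum and stratum intermedium markers 2 were lower, Alpl and Igfbp5, beside 2.27% of all clusters. In all fits that leave out 1 array 0 of these calls were kept, and 0 were lower with day as a block. Of 11 microRNA precursor genes limma called 0 (2 at an unadjusted p under 0.05, beside 8864 of 36559 clusters).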

How the data were processed

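RNA of sorted cells was hybridised to Affymetrix MTA-1_0 mouse arrays, 1 per sample. The deposited values are the authors' log2 signals, 1 per transcript cluster and array, which the file names and the submitters' processing notes tie to RMA-type summarisation (Expression Console, Transcriptome Analysis Console). The p-values, FDR p-values and signed fold changes in the authors' deposited table came from the second tool, per the file headers. The genome build was not given in the sources used here, and intensities before summarisation were not used.

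The deposited values were used without further normalisation. Gene symbols came from the authors' table, with 1419 updated, and the 3042 clusters naming more than 1 gene and the 26355 naming no gene stayed out. Embryo minus adult was fitted with limma 3.58.1 in R 4.3.3 (lmFit, eBayes, no trend) on the 6 dental arrays, and every adjusted p is Benjamini-Hochberg over 36559 clusters unless another setting is named. A call needs an adjusted p under 0.05 and a log2 difference of at least 1. Errors after ± are standard errors of the difference unless marked SD. With 3 arrays per group, their number limits the precision. The steps were tested on simulated data. Where a gene has several clusters, its brightest over the 6 arrays is given. Nothing in the labels ties equal replicate numbers across ages together, and deviations of same-numbered arrays correlated at 0.159, -0.003 and 0.05, so they were not treated as pairs.

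The comparison, the gene lists and the tests were chosen with earlier results of these data known. Named genes are Sox2, the epithelial identity list, the 12 highest and 12 lowest called differences whose arrays do not overlap, the 10 lowest adjusted p, the 10 largest spreads at each age (predicted, Riken, pseudogene, small RNA and receptor-segment names left out), up to 6 members per list by size of difference, and all called members where these are 5 or fewer. Other genes in the text, among them those with printed promoters, the uncalled members listed singly and Rb1, were chosen after their values were seen. Promoters are from RefSeq on GRCm38.p6. Alternatives were another normalisation or centring, 9 arrays, a variance trend, array weights, and replicate and day blocks. Each day alone, other thresholds and leaving out each array were also tried. Days were read from a number in the column names of a second deposited copy of the signals. No label says which step of the work the day refers to. That copy gives group and day only, and 2 embryo columns there share a sample name. Some genes of the lists are not reported here by name.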

Additional observations from a re-analysis of the deposited data

How the results depend on the processing

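Beside 1963 calls (1132 higher, 831 lower in embryo), leaving out 1 array gave 974 to 1684 calls, 549 to 946 higher and 425 to 823 lower. Members called ranged over these fits from 12 to 24 for DNA replication, 15 to 28 for mitosis, 8 to 11 for glycolysis, 7 to 12 for cholesterol, 6 to 12 for ribosome biogenesis, 5 to 9 for enamel matrix, 12 to 16 for lysosome, 14 to 17 for macrophage, 0 to 5 for mesenchyme and 4 to 10 for basement membrane. With only the arrays of day 1 or only those of day 2, each of these counts was 0, with 5603 and 5896 clusters at an unadjusted p under 0.05 by limma; each day holds 3 arrays, 1 of them alone in its group, so the fit leaves 1 residual degree of freedom. With day as a block, 1485 clusters were called, among them 16 of replication and 1 of mesenchyme. With the 2 embryo columns of 1 name averaged, 549 were lower, with 8 of ribosome biogenesis and 2 of mesenchyme. No fold threshold gave 4230 calls (2717 higher, 1513 lower) and 24 of ribosome biogenesis. A log2 difference of at least 2 gave 567 (172 higher, 395 lower), with 4 of replication, 3 of mitosis, 4 of glycolysis, 1 of cholesterol, 0 of ribosome biogenesis, 8 of lysosome and 3 of basement membrane. Mesenchyme had 9 calls with 9 arrays and 8 among brighter clusters. Replicate number as a block gave 1491 calls and 8 of cholesterol; same-numbered arrays did not all correlate best with each other. The share of calls higher in embryo was 57.7%, and 47.8% after quantile normalisation and 63.1% after median centring. Leaving out clusters with equal values on all arrays of an age, chosen after seeing the data, gave 2087 calls. The Trp63 difference of 0.04, not called, was -0.04 with array weights, -0.17 after quantile normalisation, -0.04 with day as a block, -0.08 on day 1 alone and -0.2 to 0.22 with 1 array left out. Of 191 genes followed, 40 lost their call with day as a block, 30 with the replicate block and 64 without embryo replicate 2, and 0 with a variance trend.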
